A study of Homo sapiens with 34 samples.

Results

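The axon guidance genes of 4 ligand and receptor systems were followed: the semaphorins with the plexins, the ephrins with the EPH receptors, the SLITs with the ROBO receptors, and the netrins with the UNC5 receptors. They were taken from the expression table by gene symbol, which gave 66 of 20255 genes, 35 for ligands and 31 for receptors. The families were chosen with earlier results of these data known, so the set is not independent of them. The study that reported the data had found terms of axonal development enriched in gene clusters higher in CD43- cells. H1, an established line of human embryonic stem cells, was differentiated without any added haematopoietic cytokine. Embryoid bodies (EBs) formed from the stem cells were attached to a flat surface, BMP4 and VEGF were given first and VEGF alone afterwards. The labels' protocol dates this change to day 3, while the study's methods place it at the end of the second day of attachment. The 34 samples were 1 of undifferentiated, untreated H1 cells and 3 biological replicates from 11 populations each: day 0 EBs, cells of days 2 and 4 that had not been sorted, the CD43- and CD43+ fractions of days 6, 9 and 12, and the CD43-CD45- and CD43+/CD45+ fractions of day 16. The labels give BMP4 and hVEGF for the EBs and hVEGF for all later populations. Every population came from a single cell line, so the replicates carry no variation between donors. RNA was sequenced by 2 companies, and the sources used here do not say which sample went to which.

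Guidance molecules were named for steering growing axons. A ligand on one cell or in the matrix binds a receptor on another and makes the cell edge extend or collapse. Semaphorins signal through plexins, ephrins bound to a cell surface signal through the EPH receptor tyrosine kinases of a neighbouring cell, secreted SLITs act on ROBO receptors, and secreted netrins repel through UNC5 receptors. The same molecules are known for patterning blood vessels, where EFNB2 marks arterial and EPHB4 venous endothelium, and SEMA4D and SEMA4A are known from the surface of immune cells.

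The promoters of 3 genes that were higher in CD43+ cells (PLXNC1, SEMA4D and SEMA4A) and of EFNB2 and ROBO4, which were higher in CD43- cells, are shown because these genes stood on opposite sides of the sort. Each run is the 250 bases before a RefSeq start site, on the gene's own strand of GRCh38.p14. PLXNC1 has 2 such start sites and is shown with both, and the most upstream of the SEMA4A start sites is shown. Capitals mark a match to GAGGAAGT (motif of the factor PU.1) in the first PLXNC1 run, and to AGATAA (motif of the GATA factors) in ROBO4. The first PLXNC1 run lies inside the deposited span of the gene (94148723 to 94307675). The second PLXNC1 run, which lies just before the start of that span, has no match.
PLXNC1 (chr12:94262369-94262618, plus strand): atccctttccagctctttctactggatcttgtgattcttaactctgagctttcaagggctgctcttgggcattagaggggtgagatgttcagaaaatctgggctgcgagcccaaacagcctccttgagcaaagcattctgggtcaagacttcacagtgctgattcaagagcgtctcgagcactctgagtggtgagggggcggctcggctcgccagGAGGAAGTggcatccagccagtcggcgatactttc
PLXNC1 (chr12:94148327-94148576, plus strand): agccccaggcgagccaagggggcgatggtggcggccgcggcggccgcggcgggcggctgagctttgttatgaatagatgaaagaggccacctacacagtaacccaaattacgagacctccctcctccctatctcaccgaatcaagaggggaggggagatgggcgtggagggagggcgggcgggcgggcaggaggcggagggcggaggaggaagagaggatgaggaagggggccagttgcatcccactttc
SEMA4D (chr9:89495657-89495906, minus strand): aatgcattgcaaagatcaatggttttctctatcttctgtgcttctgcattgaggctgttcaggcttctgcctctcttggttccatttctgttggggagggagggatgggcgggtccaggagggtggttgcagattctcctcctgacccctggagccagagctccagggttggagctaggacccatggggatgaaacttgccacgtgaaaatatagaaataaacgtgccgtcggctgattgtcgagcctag
SEMA4A (chr1:156149694-156149943, plus strand): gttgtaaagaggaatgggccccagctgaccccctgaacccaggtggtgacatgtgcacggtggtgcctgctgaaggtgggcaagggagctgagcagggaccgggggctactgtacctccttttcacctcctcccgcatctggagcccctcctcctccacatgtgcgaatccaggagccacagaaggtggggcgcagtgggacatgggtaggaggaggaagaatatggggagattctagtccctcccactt
EFNB2 (chr13:106535663-106535912, minus strand): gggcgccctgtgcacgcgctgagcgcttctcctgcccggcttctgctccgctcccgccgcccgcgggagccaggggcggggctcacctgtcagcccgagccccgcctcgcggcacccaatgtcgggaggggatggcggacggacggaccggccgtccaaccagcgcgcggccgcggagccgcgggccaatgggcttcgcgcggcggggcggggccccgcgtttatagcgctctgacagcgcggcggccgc
ROBO4 (chr11:124897866-124898115, minus strand): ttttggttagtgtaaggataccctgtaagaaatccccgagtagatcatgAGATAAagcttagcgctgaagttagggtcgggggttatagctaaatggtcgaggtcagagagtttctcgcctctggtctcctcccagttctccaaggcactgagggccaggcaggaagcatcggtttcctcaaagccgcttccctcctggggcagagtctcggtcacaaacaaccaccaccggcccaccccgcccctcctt
RefSeq start sites were matched by symbol for 57 of the 66 genes, which gave 89 promoters. On either strand, AGATAA stood in 7 of the 89 (7.87%), against 9.17% of 35116 promoters of all genes. GAGGAAGT stood in 3 of the 89 (3.37%), those of PLXNA2, PLXNC1 and SEMA4B, against 2.17% of all. CCGGAAGT, an ETS type motif that shares its last 6 letters with GAGGAAGT, stood in none of the 89 (0.0%) against 3.42% of all. These are counts of letters in a window of fixed length and say nothing of binding.

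The values were gene counts that the authors normalised for GC content in such a way that each sample holds the same set of values, so that depth is unknown and a value is a rank-based level. Replicates of a population correlated across genes with r between 0.951 and 0.987. SPN, the gene of CD43, lay between 18 and 328 in the 12 CD43- samples and between 2338 and 9460 in the 12 CD43+ samples. PTPRC, the gene of CD45, was at most 8 in either fraction at day 6 and lay between 634 and 15868 in later CD43+ samples. In 2 of the 3 day 12 CD43- samples PTPRC was at 197 and 371, against 4 in the other, and the sum of 5 macrophage markers ran from 132 to 4163 over these samples. The sum of 8 endothelial markers lay between 34746 and 45156 in day 6 CD43+ cells and between 5786 and 16550 in later CD43+ cells, and that of 8 mesenchymal markers between 58804 and 155218 and between 4199 and 45652. The collagen genes COL1A1, COL1A2 and COL3A1 made up most of the mesenchymal sum. In bulk samples of this kind, fewer cells of a type and less RNA per cell cannot be told apart.

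The first question was how the guidance genes divided between the CD43+ and CD43- fractions of the same day. From day 9 on, most of them were called lower in the CD43+ fraction. A gene was called different when limma, fitted to log2(value + 1) of 33 samples and 19788 genes, gave an adjusted p below 0.05 and a fold change above 4. On day 6, 24 of the 66 guidance genes were lower and 2 higher, while 7.85% and 4.68% of all genes tested were. Without the limit on the fold, 47 were lower on day 6 at an adjusted p below 0.05, against 21.5% of all genes. On day 9, 37 were lower and 1 higher, against 12.8% and 8.65% of all genes. On day 12, 47 were lower and 3 higher, against 14.4% and 11.8% of all genes. On day 16, 40 were lower and 3 higher, against 13.6% and 12.2% of all genes. The median log2 difference of the 66 genes was -1.33, -2.54, -2.92 and -2.82 on days 6, 9, 12 and 16, where the median of all genes tested was 0.14, 0.24, 0.22 and 0.14.

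**Figure D1:**
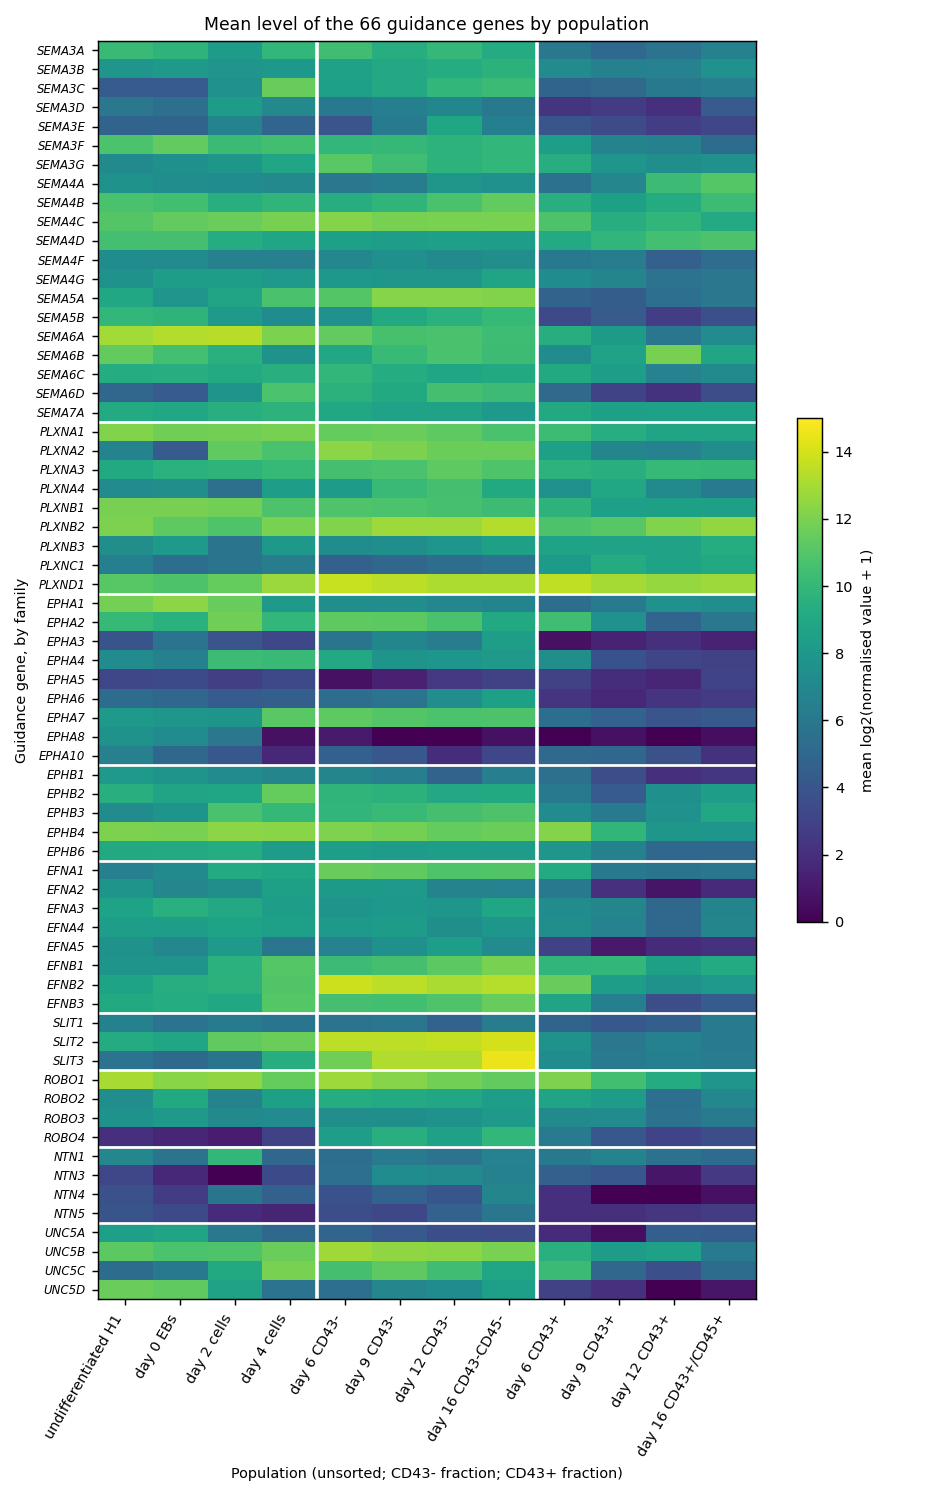
Mean of log2(normalised value + 1) for the 66 guidance genes (rows, white lines between families) in the 12 populations (columns), with 3 samples a population and 1 of undifferentiated H1 cells. Colours compare populations within a row, since values are not per length, and SLIT2, SLIT3, EFNB2 and UNC5B are bright in the CD43- columns and dark in the later CD43+ columns.

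Both the ligands and the receptors took part. Of the 35 ligands, 13, 21, 28 and 25 were lower in CD43+ cells on days 6, 9, 12 and 16, and of the 31 receptors, 11, 16, 19 and 15 were. In all, 50 of the 66 genes were lower in CD43+ cells on at least 1 day and 19 on all 4 days, against 20.2% and 4.62% of all genes tested. These 19 were SEMA3A, SEMA3C, SEMA5A, SEMA5B, SEMA6A, SEMA6D, PLXNA2, EPHA3, EPHA6, EPHA7, EFNA1, EFNA2, EFNA5, EFNB2, SLIT2, SLIT3, ROBO4, UNC5B and UNC5D. Among them, SEMA6A, EFNA2, EFNB2 and ROBO4 lost the day 6 call when a single sample was left out. EPHA6 (-1.92), EFNA2 (-1.91) and UNC5D (-1.69) lost it with a constant of 10 in place of 1. Over the 12 CD43- and 12 CD43+ samples together, every CD43- value was above every CD43+ value for 30 of the 66 genes, and the reverse held for 2, SEMA4D and PLXNC1. The same was true of 7.6% and 5.64% of all genes tested. Where a gene is at or near 0 in a population, the size of its fold change depends on the constant added before taking logs.

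**Figure D2:**
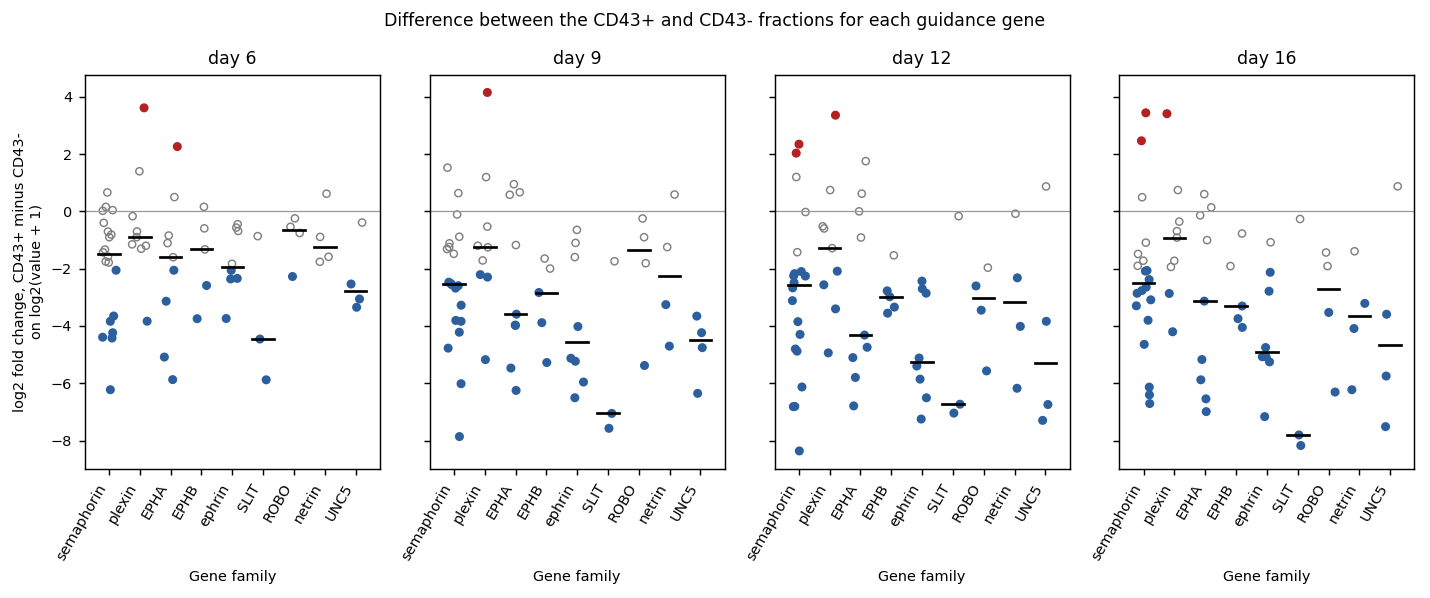
Log2 fold change (CD43+ minus CD43-, on log2(value + 1)) of each of the 66 guidance genes by family and day. Filled points passed the test (blue lower, red higher in CD43+), open points did not, and black bars are family medians, which lay below 0 in all 9 families on all 4 days.

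The secreted class 3 semaphorins, which act through neuropilin and plexin complexes, were lower in CD43+ cells for 3 of 7 genes on day 6, for 7 of 7 on days 9 and 12 and for 6 of 7 on day 16. SEMA3A, the classical repellent of sensory axons, lay between 502 and 2722 in the 12 CD43- samples (median 760.5) and between 27 and 104 in the CD43+ samples (median 56). Its difference was already -4.39 ± 0.34 (SE, 3 against 3 samples; limma, adjusted p = 5.07e-11) on day 6 and was -2.64 ± 0.34 on day 16. SEMA3C, needed for the outflow tract of the heart, kept a near constant gap of -3.65, -3.84, -3.85 and -3.80 on the 4 days.

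SEMA3E, a direct ligand of PLXND1 in vessels, behaved otherwise. Its values in day 6 CD43- cells were 18, 14 and 12 and in CD43+ cells 22, 11 and 13, so the fractions overlapped. In CD43- cells it then stood at 49, 172 and 44 on day 9 and at 348, 902 and 318 on day 12, before 101, 78 and 88 on day 16. Within the CD43- fraction it was higher on day 9 than on day 6 by 2.24 ± 0.41 and on day 12 than on day 9 by 2.67 ± 0.41, and it fell by 2.38 from day 12 to day 16. The first of these steps rested on the sample at 172, without which it was 1.62 and not called, and in a fit of the compared populations alone its adjusted p was 0.201. In such a fit the adjusted p of the second step was 0.0643, and the fall was -1.90 and not called without the sample at 902. CD43+ cells did not exceed 22 on any day, and the difference between fractions reached -6.13 ± 0.41 on day 12 (limma, adjusted p = 6.30e-13).

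The transmembrane class 5 and 6 semaphorins held the widest single gap among the 20 semaphorins on each of the 4 days, that of SEMA5A on days 6 and 9 and of SEMA6D on days 12 and 16. SEMA5A, which carries thrombospondin repeats, was at 1410, 1915 and 3132 in day 6 CD43- cells and at 14, 32 and 40 in day 6 CD43+ cells, a difference of -6.22 ± 0.37 (limma, adjusted p = 5.42e-13). On later days its CD43- values lay between 4370 and 5632 and its CD43+ values between 10 and 80. SEMA6D, a plexin A1 ligand of the developing heart, was at 954, 1521 and 2416 in day 12 CD43- cells and at 8, 0 and 10 in CD43+ cells (-8.36 ± 0.62; adjusted p = 3.47e-12). SEMA5B stood at 1015, 1134 and 1087 against 10, 20 and 8 on day 16, a difference of -6.40 ± 0.68. SEMA6A, a ligand of PLXNA2 and PLXNA4, was at 10075, 9714 and 9485 in EBs and at 1097, 1275 and 1545 in day 16 CD43-CD45- cells, and lay between 42 and 736 in CD43+ cells.

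Class 4 semaphorins divided. SEMA4C was lower in CD43+ cells on days 9, 12 and 16, with 514 to 1863 over all CD43+ samples against 3298 to 6135 in CD43- samples. SEMA4F and SEMA4G were lower on days 12 and 16, with log2 differences between -2.86 and -2.07. SEMA4D and SEMA4A went the other way, and SEMA4B was called on no day. SEMA7A, a lipid-anchored ligand of PLXNC1, was not called on any day either, with 226 to 585 in CD43- and 268 to 562 in CD43+ samples.

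PLXNC1, the receptor of SEMA7A, was the single one of the 66 genes higher in CD43+ cells on all 4 days, as 2.09% of all genes tested were. It was at 27, 31 and 14 in day 6 CD43- cells and at 270, 224 and 402 in day 6 CD43+ cells. Over all days its CD43- values did not exceed 106 and its CD43+ values did not fall under 224. The log2 differences were 3.61, 4.15, 3.36 and 3.41 (SE 0.48; limma, adjusted p = 6.35e-07, 2.68e-08, 7.12e-07 and 5.83e-07). When the 2 day 12 CD43- samples with PTPRC were left out, the day 12 difference was 1.96 (adjusted p = 0.00355), just short of the 4-fold limit, since the remaining CD43- sample was that at 106. This fit, chosen after the data were seen, takes the lone sample to vary like the other groups. PLXNC1 overlaps CEP83 on chromosome 12 (94148723 to 94307675, GRCh38), and it is not stated whether the counting used strand.

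SEMA4D, also known as CD100, followed a U-shaped course. It stood at 1497, 1578 and 1492 in EBs, at 612, 564 and 702 on day 2 and at 469, 412 and 448 on day 4. From there the fractions diverged. CD43- values stayed between 281 and 410, while CD43+ values were 589, 538 and 568 on day 6 and 927, 1011 and 891 by day 9. They reached 1571, 1447 and 1404 on day 12 and 1902, 1928 and 1632 on day 16. The log2 differences on the 4 days were 0.66, 1.53, 2.03 and 2.46 (SE 0.13; limma, adjusted p = 1.10e-04 on day 6 and 3.14e-15 on day 16). It passed the 4-fold limit on days 12 and 16, narrowly on day 12, where it was 1.86 without CD43- replicate 3, 1.99 without CD43+ replicate 1 and 1.93 under median-of-ratios scaling.

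SEMA4A separated the fractions later. It was at 42, 66 and 86 in CD43- and 38, 42 and 64 in CD43+ cells on day 6, with no gap between them, and at 114, 118 and 141 in CD43+ cells on day 9. On day 12 it was at 1606, 1102 and 1133 in CD43+ cells and on day 16 at 2218, 2039 and 2116. Within CD43+ cells the step from day 9 to day 12 was 3.34 ± 0.34 (limma, adjusted p = 6.52e-09). The difference between fractions was 2.34 ± 0.34 on day 12 and 3.44 ± 0.34 on day 16. Day 12 CD43- cells stood at 120, 286 and 441, the second and the third of them being the samples with PTPRC, and the day 12 difference was 1.83, and not called, without the first and 3.38 without the other two. The part of PTPRC-bearing cells in the value was not tested.

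SEMA6B, a transmembrane ligand of A plexins, was called in no comparison of fractions but had a peak in CD43+ cells. CD43+ cells held 188, 134 and 144 on day 6 and 368, 358 and 497 by day 9, then 6916, 3084 and 2599 on day 12 and 484, 310 and 606 at day 16. It rose by 3.24 ± 0.32 from day 9 to day 12 (limma, adjusted p = 3.07e-09) and fell by 3.08 from day 12 to day 16 (adjusted p = 2.28e-08). The replicate with 6916 also had the highest macrophage sum of the day, 57093 over a range that began at 15657, and its part in the value was not tested. In day 16 CD43+/CD45+ cells the macrophage sum was 48532 to 53144 and SEMA6B did not exceed 606.

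**Figure D3:**
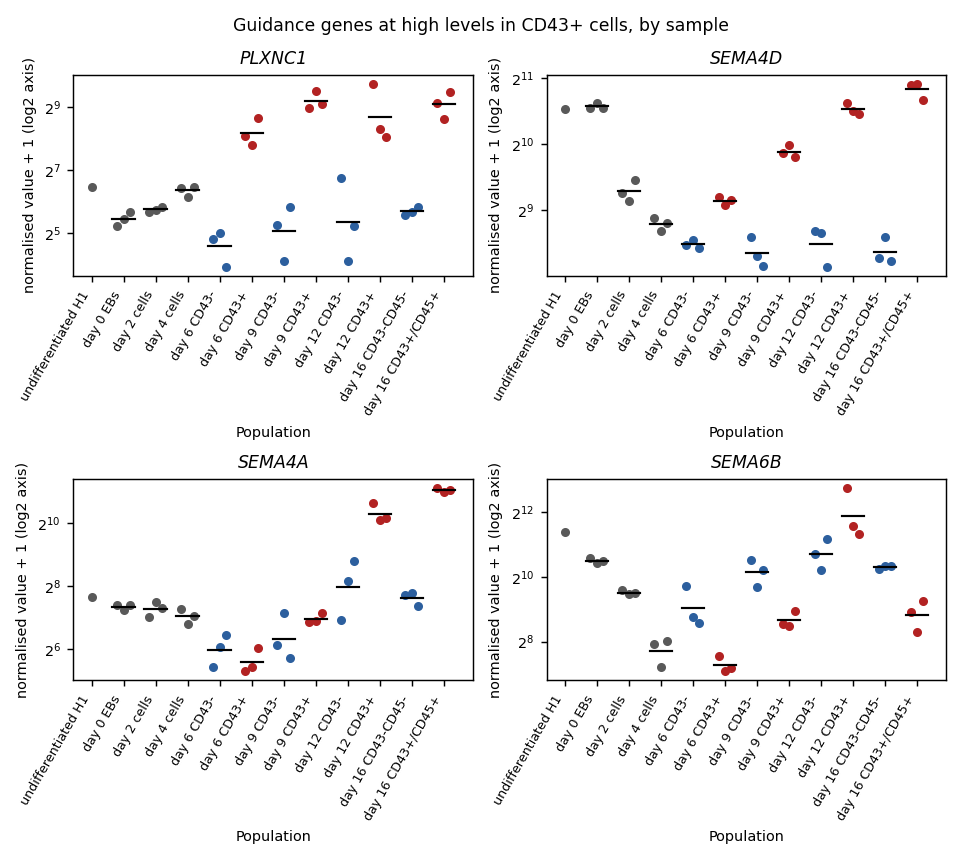
PLXNC1, SEMA4D, SEMA4A and SEMA6B in every sample of the 12 populations, as normalised value + 1 on a log2 axis (grey unsorted, blue CD43-, red CD43+), with bars at the mean of the logs. PLXNC1 and SEMA4D are higher in red than in blue on each day, SEMA4A on days 12 and 16, and SEMA6B in red peaks on day 12 between 2599 and 6916.

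The other plexins were lower in CD43+ cells or not called. PLXNA2, a receptor of SEMA6A and of class 3 semaphorins, was at 5194, 4037 and 7332 in day 6 CD43- cells and at 554, 310 and 307 in CD43+ cells (-3.83 ± 0.32; limma, adjusted p = 1.79e-10), and was lower on all 4 days. PLXNA4 was not called on days 6 and 9 and was at 1312, 1664 and 1539 against 83, 207 and 162 on day 12, a difference of -3.40 ± 0.25. PLXNA1 and PLXNB1, the latter the receptor of SEMA4D, were lower on days 9 and 12, with log2 differences between -2.56 and -2.09. PLXND1 was high in every sorted sample, between 5308 and 20394, and the log2 differences of its fractions lay between -0.53 and -0.17, none of them called. PLXNA3 was lower in CD43+ cells with no overlap over all samples, 644 to 1173 against 1414 to 2912, but by less than 4-fold on each day.

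Of the 8 ephrins, 4, 5, 8 and 7 were lower in CD43+ cells on the 4 days. EFNB2, the arterial ephrin, stood at 1915, 2083 and 1934 in day 4 cells and at 25836, 14668 and 8964 in day 6 CD43- cells, higher by 2.93 ± 0.38. EFNA1 was the other ephrin that rose in this step. For EFNB2, day 6 CD43+ cells held 3482, 2716 and 2660, and by day 9 they held 332, 272 and 428, a fall of 3.11 ± 0.38 (limma, adjusted p = 3.71e-07). The difference between fractions was -2.36 on day 6 and -5.40 on day 12. The day 6 call rested on 1 sample, the value being -1.97 without the CD43- replicate at 25836.

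EFNB3 and EFNB1, the other transmembrane ephrins, differed by less than 4-fold on day 6. EFNB3 was already lower in CD43+ cells then, at 1247, 1178 and 2450 against 392, 400 and 509 (-1.83 ± 0.44; limma, adjusted p = 9.92e-04), and at 1448, 2636 and 1668 against 6, 12 and 19 on day 12, where the difference was -7.25 ± 0.44 (limma, adjusted p = 5.46e-14). EFNB1 overlapped between the fractions on day 6, with 874, 1106 and 2076 against 853, 898 and 1028, and was lower in CD43+ cells on days 12 and 16, by then at -2.79 ± 0.29. Among the lipid-anchored EFNA ligands, EFNA1, an early response gene of endothelial cells, lay between 1791 and 3895 in CD43- samples and fell in CD43+ cells from 622, 546 and 584 on day 6 to 48, 52 and 120 on day 9. EFNA2 fell likewise, from 52, 48 and 120 to 2, 2 and 8, and EFNA5 was between 0 and 10 in all CD43+ samples against 65 to 506 in CD43- samples. EFNA1, EFNA3 and EFNA4 lie side by side on chromosome 1, with 9.3 kb between EFNA4 and EFNA3 and 39.9 kb between EFNA3 and EFNA1, yet EFNA3 and EFNA4 differed by less than 4-fold on days 6 and 9, where EFNA1 differed by -2.34 and -5.23.

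The EPHA receptors, which mainly bind EFNA ligands, were lower in CD43+ cells for 4 of 9 genes on day 6 and for 5 of 9 on each later day. EPHA7, a receptor of EFNA5, had the widest day 6 gap of the 9. It stood at 1664, 1636 and 5642 in day 6 CD43- cells and at 34, 50 and 42 in CD43+ cells, a difference of -5.87 ± 0.46 (limma, adjusted p = 7.49e-11), and it stayed between -6.25 and -6.79 later. EPHA3 and EPHA6 lay at 34 to 568 and 30 to 442 in CD43- samples and did not exceed 6 in any CD43+ sample. EPHA1 was lower on day 6 alone, with a log2 difference of -2.05 that was -1.80 without 1 CD43+ replicate and then not called, and EPHA2 and EPHA4 were lower on the 3 later days. EPHA5 was called higher in CD43+ cells on day 6, at 4, 7 and 10 against 1, 0 and 1, levels at which a constant of 10 in place of 1 reduced the difference from 2.26 to 0.66. EPHA8 did not exceed 4 in any sorted sample, and EPHA10, which lacks kinase activity, did not exceed 50.

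EPHB receptors were lower in CD43+ cells for 2, 3, 4 and 3 of 5 genes on the 4 days. EPHB3 was at 714, 989 and 1176 against 104, 149 and 243 on day 6 (-2.59 ± 0.27; limma, adjusted p = 1.39e-08) and remained lower on days 9 and 12. EPHB2 had a dip and a return in CD43+ cells. It was at 3040, 2722 and 2706 on day 4, at 42, 72 and 94 in day 6 CD43+ cells, at 13, 30 and 20 on day 9, and back at 361, 146 and 113 on day 12, a rise of 3.13 ± 0.36 (adjusted p = 4.74e-08). CD43- cells held 309 to 1307, so the gap closed from -5.28 on day 9 to -1.53 on day 12 and -0.77 on day 16.

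SLIT2 and SLIT3 were lower in CD43+ cells on all 4 days, with log2 differences between -8.17 and -4.46. SLIT2, the best known ROBO1 ligand (chromosome 4, 20253260 to 20620561), was at 9246, 9726 and 17368 in day 6 CD43- cells and at 237, 202 and 158 in CD43+ cells, a difference of -5.88 ± 0.33 (limma, adjusted p = 2.07e-13). Over all days it lay between 8682 and 18772 in CD43- samples, with a median of 14004.5, and between 34 and 237 in CD43+ samples, with a median of 102.5. SLIT3 (chromosome 5, 168661733 to 169301129) was at 3205, 4425 and 3032 in CD43- cells on day 6 and at 22818, 22818 and 25842 on day 16, with no single step between days called, while CD43+ cells held 119, 225 and 149 on day 6 and 104, 100 and 52 on day 16. Its difference was -4.46 ± 0.41 on day 6 and -8.17 ± 0.41 on day 16 (adjusted p = 1.16e-15 on day 16). SLIT1 was low in both fractions, at 22 to 114 and 10 to 108, and was not called.

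Of the 4 ROBO receptors, 1, 1, 3 and 2 were lower in CD43+ cells on the 4 days. ROBO4, the endothelial member, was at most 12 up to day 4 and stood at 1278, 546 and 58 in day 6 CD43- cells and 216, 75 and 22 in day 6 CD43+ cells, so that the fractions overlapped although the difference was called (-2.26 ± 0.76; limma, adjusted p = 0.0152). From day 9 on ROBO4 lay between 281 and 1117 in CD43- cells and between 6 and 28 in CD43+ cells. Its day 6 difference was -1.31 without the CD43- replicate at 1278, -1.92 without that at 546 and -1.43 without the CD43+ replicate at 22, and it was then not called. ROBO3, which lies 2.2 kb from ROBO4 on chromosome 11, was not called, with 144 to 294 in CD43- and 28 to 160 in CD43+ samples. ROBO2 was at 712, 378 and 446 against 19, 49 and 92 on day 12 (-3.45 ± 0.40) and was not called on the other days.

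Of the netrins, NTN3 and NTN4 were lower in CD43+ cells on days 9, 12 and 16 and NTN5 on days 12 and 16, and on day 6 limma called none of the 4, with adjusted p from 0.0187 to 0.262. Their values were low. NTN3 was between 42 and 214 in CD43- and between 0 and 26 in CD43+ samples, and NTN4, a basement membrane netrin, was listed at 0 in all 3 CD43+ samples of days 9 and 12, against 36, 8 and 52 and 42, 6 and 13 in CD43- cells. Of the UNC5 receptors, 3, 4, 3 and 3 of 4 were lower. UNC5B, the endothelial netrin receptor, was at 12840, 6916 and 4657 against 1612, 614 and 396 on day 6 (-3.35 ± 0.40; limma, adjusted p = 1.02e-07) and at 3654, 4241 and 4508 against 82, 78 and 68 on day 16 (-5.75 ± 0.40). UNC5D was listed at 0 in the 3 day 12 CD43+ samples and lay between 30 and 374 in CD43- samples. UNC5A was lower in CD43+ cells on days 6 and 9 at values of 0 to 4 against 14 to 60, and on day 12 CD43+ cells were at 38, 24 and 10.

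Of the 66 genes, 26 were called lower in CD43+ cells on day 9, 12 or 16 and were not called on day 6, against 12.1% of all genes tested. Of these 26, 19 were already lower on day 6 at an adjusted p below 0.05 by less than 4-fold, among them SEMA3F (-1.58) and SEMA3G (-1.78). The other 7 were SEMA3E, EPHB4, EFNB1, ROBO2, NTN3, NTN5 and UNC5C. For EPHB4, the venous partner of EFNB2, day 6 CD43+ cells held 4114, 4960 and 5482 and CD43- cells 4783, 4608 and 3652, with the fractions overlapping (0.16 ± 0.13; limma, adjusted p = 0.332). On day 9 CD43+ cells held 927, 952 and 929, and on day 12 they held 190, 256 and 292, while CD43- cells stayed between 2413 and 4152. The difference was -2.00 on day 9, just short of the 4-fold limit, and -3.55 ± 0.13 on day 12 (adjusted p = 3.42e-18).

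UNC5C was at 758, 1315 and 1618 in day 6 CD43+ cells and at 13, 36 and 56 on day 9, a fall of 5.25 ± 0.71 (limma, adjusted p = 2.04e-06). In CD43- cells it was at 1015, 2340 and 1530 and then at 2692, 1358 and 4378, and the step was not called. EPHA2, a receptor of EFNA1, fell by 2.82 ± 0.29 and then by 2.72 ± 0.29, from 1075, 1258 and 1910 on day 6 to 153, 205 and 232 on day 9 and 34, 14 and 48 on day 12. EPHA4, which binds ephrins of both classes, went from 92, 198 and 281 to 12, 9 and 20 in CD43+ cells between days 6 and 9, and was already lower than the 474, 541 and 564 of CD43- cells on day 6 (-1.60; adjusted p = 0.00860). ROBO1, the main SLIT2 receptor, was at 4118, 3988 and 4480 in day 6 CD43+ cells, within the 12014, 7778 and 3788 of CD43- cells, and at 1232, 1500 and 1459 on day 9 and 244, 208 and 260 on day 16.

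**Figure D4:**
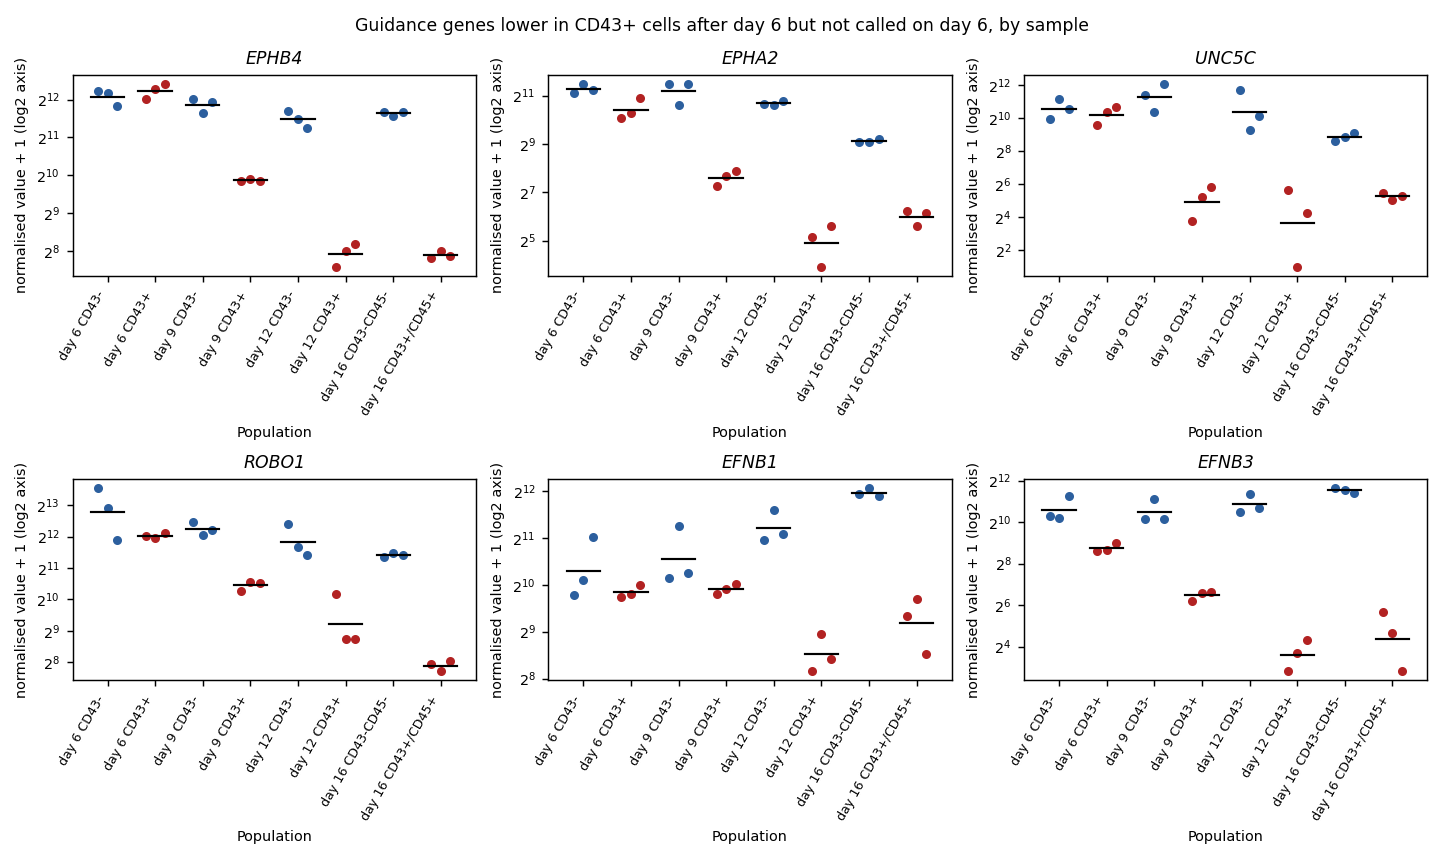
EPHB4, EPHA2, UNC5C, ROBO1, EFNB1 and EFNB3 in every sorted sample, as normalised value + 1 on a log2 axis (blue CD43-, red CD43+), with bars at the mean of the logs. The day 6 mean differences run from -1.83 (EFNB3) to 0.16 (EPHB4), and on day 12 every red point lies below every blue point in each panel.

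From day 6 to day 9, 11 of the 66 genes fell in CD43+ cells and none rose by the limits used (limma), against 3.97% and 3.56% of all genes. At an unadjusted p below 0.05, 7 were higher, against 19% of all genes. The 11 were SEMA6D, EPHA2, EPHA4, EPHB4, EFNA1, EFNA2, EFNB2, EFNB3, ROBO4, NTN4 and UNC5C. The median change of the 66 was -0.74 against 0.01 for all genes. Over the same step the summed endothelial markers of CD43+ cells went from 34746 to 45156 down to 13180 to 16550 and the mesenchymal sum from 58804 to 155218 down to 4199 to 21817, and their part in the falls was not tested. The fall of the mesenchymal sum lay mainly in COL1A1 and COL1A2. DCN went from 12, 14 and 24 to 30, 71 and 117 and PDGFRB from 653, 699 and 824 to 516, 506 and 584. PDGFRA, LUM and TWIST1 overlapped between the days. On day 6, DCN, LUM, PDGFRA, COL3A1 and TWIST1 were already lower in CD43+ than in CD43- cells (-7.27 to -2.27). PDGFRB was lower then as well, without overlap but by less than 4-fold (-1.95; limma, adjusted p = 2.40e-09). COL1A1 and COL1A2 overlapped between the fractions (-0.36 and 0.18) and were not called. The endothelial gene CDH5 was at 5644, 4481 and 6144 in day 6 CD43+ samples and at 440, 457 and 584 on day 9. The other endothelial markers did not all fall so far. KDR, TEK and VWF were clearly lower on day 9. PECAM1 went only from 5704, 5314 and 5641 to 4078, 4116 and 4329, and TIE1 from 6006, 4716 and 5703 to 3684, 4374 and 4241. ESAM and EMCN overlapped between the days.

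From day 9 to day 12, 4 genes rose in CD43+ cells (SEMA4A, SEMA6B, EPHB2 and UNC5A) and 6 fell (SEMA6A, EPHA2, EFNB3, ROBO2, NTN3 and UNC5D), where 8.45% and 6.54% of all genes did. Low values underlay UNC5A (2, 0 and 0 to 38, 24 and 10), NTN3 (20, 17 and 11 to 6, 0 and 0) and UNC5D (4, 1 and 8 to 0, 0 and 0). With a constant of 10 in place of 1 their changes were 1.59, -1.14 and -0.49 and were not called. From day 12 to day 16, SEMA3D rose and SEMA6B and UNC5B fell, 1 and 2 genes against 3.79% and 5.26% of all. UNC5B went from 641, 271 and 317 to 82, 78 and 68 in this step. SEMA3D stood at 3, 3 and 3 and then at 11, 19 and 32, a rise at low values.

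In the CD43- fraction, 1, 2 and 3 of the genes were called in the 3 steps between days. From day 6 to day 9, SEMA3E rose and no gene fell (limma), 1 and 0 genes against 1.1% and 0.657% of all, and at an unadjusted p below 0.05, 6 were lower, against 10.9% of all genes. From day 9 to day 12, SEMA3E rose and EPHA10 fell, against 4.52% and 2.8% of all genes. From day 12 to day 16, EPHA3 and NTN4 rose and SEMA3E fell, against 4.46% and 5.97% of all. EPHA3 went from 147, 90 and 36 on day 12 to 264, 568 and 270 on day 16, and NTN4 from 42, 6 and 13 to 117, 139 and 100. The rise of EPHA3 was 1.57 without the day 12 sample at 36 and 1.76 without the day 16 sample at 568, and the fall of EPHA10 was -1.91 without day 12 replicate 2 and -1.78 without day 9 replicate 3, and neither was then called.

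Whether the gap between fractions itself changed with time was tested as a difference of differences. Between days 6 and 12, the CD43+ minus CD43- difference moved down for 24 of the 66 genes and up for 5, where 10% and 8.44% of all genes tested moved so. The largest moves down were those of UNC5C (-6.35 ± 1.01; limma, adjusted p = 1.02e-05), SEMA3E (-6.15 ± 0.59; adjusted p = 3.37e-09), EFNB3 (-5.42 ± 0.62; adjusted p = 6.51e-08) and NTN3 (-5.28 ± 0.91; adjusted p = 3.41e-05). The moves up were those of SEMA4A, SEMA6B, EPHA1, EPHB2 and UNC5A. For EPHB2 the move was 1.72 and 1.83 without day 12 CD43+ replicate 1 and CD43- replicate 3. It was 1.89 and 1.94 without day 6 CD43+ replicate 1 and CD43- replicate 3, and in each case was not called. Between days 12 and 16 the difference moved up for 5 genes and down for 3, against 2.86% and 2.17% of all genes. The day 12 samples stand in both tests, which are therefore not independent of each other.

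Replicates of the CD43- fraction differed in the summed level of endothelial markers, and some guidance genes came in the same order. On day 6, the summed endothelial markers were 117149, 86972 and 36641 in the 3 CD43- samples, and CDH5, the endothelial cadherin, stood at 25876, 10844 and 5254. EFNB2, ROBO4, UNC5B and SEMA3G, a class 3 semaphorin of vessels at 4030, 2335 and 1206, came in the same order. SLIT2, SEMA3A and SEMA5A came in the reverse order, and the mesenchymal sum was 187533, 193386 and 225266. In all, 18 of the 66 genes followed the endothelial order on day 6 and 20 the reverse order, 27.3% and 30.3%, against 20% and 21.4% of all genes tested. On day 9, with endothelial sums of 81111, 47982 and 50527, 18 followed that order and 10 the reverse order, 27.3% and 15.2%, against 15.1% and 14.9% of all genes. The mesenchymal sums of these day 9 samples were 218262, 235652 and 272884, which was not the reverse of the endothelial order. COL3A1 and COL1A2 stood at 90700 and 48056 in each CD43- sample of both days, so the order of the mesenchymal sum came from its other genes. The 14 genes in the endothelial order on both days were EFNA1, EFNB2, EPHB4, PLXNB3, PLXND1, ROBO1, ROBO4, SEMA3F, SEMA3G, SEMA6A, SEMA6B, SEMA6C, SEMA7A and UNC5B, and the 7 in the reverse order on both were EFNB1, EPHA3, EPHA6, EPHB3, PLXNA4, SEMA3B and SLIT2. These are 21.2% and 10.6% of the 66, where 7.02% and 6% of all genes tested kept the one or the other order on both days. With 3 samples a day this is a description and was not tested.

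Some markers of neural and epithelial cells were also present in the CD43- fraction. The neuronal gene STMN2 was at 220, 102 and 136 on day 6, at 1210, 6592 and 897 on day 9 and at 10446, 9902 and 9501 on day 16, and it did not exceed 41 in CD43+ cells. TUBB3, of the same neural list, went the other way in CD43- cells, from 2730, 2788 and 1134 on day 6 to 568, 435 and 536 on day 16. The neural transcription factor gene PAX6 did not exceed 54 in any sample, so the rise among the neural markers rested on STMN2 alone. The sum of 4 epithelial and endodermal markers was 2211 to 5443 on day 6 and 17337 to 25111 on day 16 in CD43- cells, and that of 4 megakaryocyte markers was 2990 to 8813 in day 16 CD43-CD45- cells. The part of such cells in the guidance gene levels was not tested.

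Before day 6, where the cells were not sorted, guidance genes rose and fell at both steps. From day 0 to day 2, 11 of the 66 genes rose and 4 fell, against 4.4% and 3.48% of all genes tested. From day 2 to day 4, 10 rose and 6 fell, against 4.97% and 4.53%. Both steps use the same day 2 samples, so a gene that peaks there rises in one and falls in the other.

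NTN1, the founding netrin (chromosome 17, 9021542 to 9244000), had a peak on day 2. It was at 40, 68 and 60 in EBs, at 974, 1085 and 868 on day 2 and at 38, 27 and 32 on day 4, a rise of 4.13 ± 0.36 and a fall of 4.88 ± 0.36 (limma, adjusted p = 6.21e-10 and 2.04e-11). No later sample was above 136. PLXNA2 had the largest rise of the 66 in the first step, 7.06 ± 0.32 (adjusted p = 9.77e-16), from 21, 13 and 24 to 2600, 2808 and 2521, and was at 1630, 1442 and 1817 on day 4. Undifferentiated H1 cells, a single sample, held 104.

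SEMA3C rose in both steps, from 16, 20 and 20 to 186, 188 and 198 and then to 3724, 2722 and 2330, by 3.29 ± 0.36 and 3.90 ± 0.36. UNC5C rose from 64, 64 and 70 to 549, 702 and 460 and to 3304, 4432 and 4545, and SEMA6D from 10, 36 and 20 to 220, 253 and 190 and to 1860, 1312 and 2188. EPHA4 rose on day 2 to 1256, 1316 and 1118 from 86, 101 and 100 and was at 1087, 986 and 1393 on day 4. EPHB3, EPHA2, SLIT2, SEMA3D and NTN4 were the other genes that rose on day 2, by 2.14 to 3.20 on the log2 scale. The additional genes that rose on day 4 were PLXNA4, PLXNB3, EPHA7, EPHB2, EFNB3, SLIT3 and NTN3, with EPHA7 going from 204, 239 and 197 to 2848, 1560 and 2692.

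Other genes fell, some of them from high levels in EBs and undifferentiated cells. UNC5D fell in both steps, from 2502, 2522 and 2653 in EBs to 396, 385 and 396 and to 56, 50 and 48, the second step being -2.91 ± 0.53, and was at 3037 in undifferentiated H1 cells. EPHA1, the first EPH receptor described, was at 4938, 5979 and 5231 in EBs, at 3093, 2778 and 2963 on day 2 and at 272, 273 and 258 on day 4, a fall of 3.45 ± 0.35 in the second step. UNC5A, ROBO2 and PLXNB3 fell on day 2. EPHA8 went from 78, 53 and 52 to 0, 1 and 1 on day 4, and EPHA10, EFNA5 and NTN1 fell in that step too. EFNA5 and NTN1 fell from values that were higher on day 2 than in EBs, and EPHA10 was low throughout. The summed pluripotency markers were 65826 to 80818 in EBs, 50721 to 55473 on day 2 and 8986 to 10349 on day 4.

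**Figure D5:**
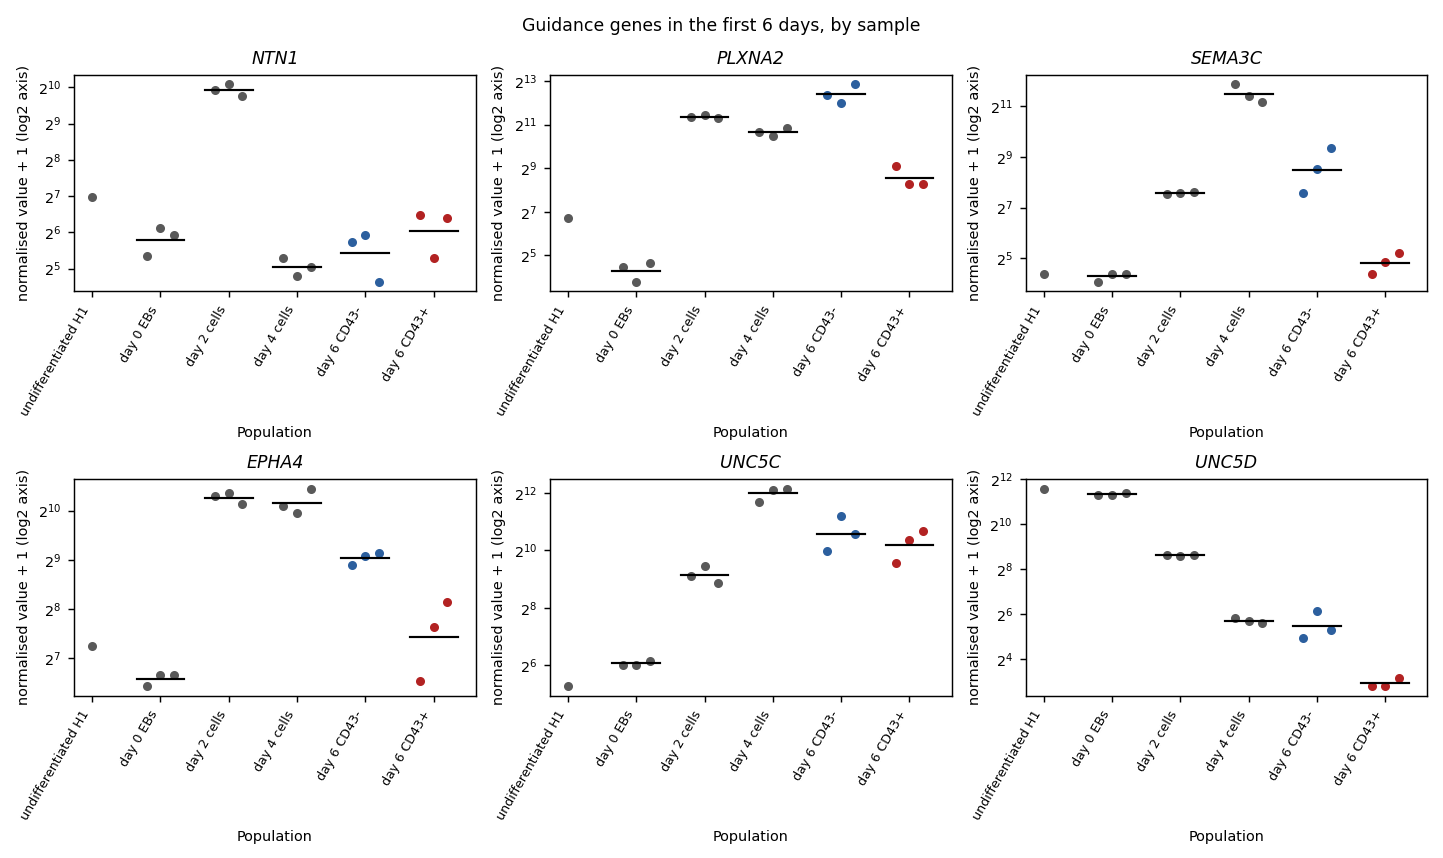
NTN1, PLXNA2, SEMA3C, EPHA4, UNC5C and UNC5D in every sample up to day 6, as normalised value + 1 on a log2 axis (grey unsorted, blue CD43-, red CD43+), with bars at the mean of the logs. NTN1 is at 868 to 1085 on day 2 and at 124 or less in the other samples shown, and UNC5D goes from 2502 or more in EBs to 56 or less on day 4.

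Both fractions of day 6 were set against the same 3 samples of day 4 cells. In CD43+ cells, 25 of the 66 genes were lower and 2 higher, against 7.73% and 6.8% of all genes. In CD43- cells, 9 were higher and 2 lower, against 4.94% and 2.77%. ROBO4 was higher in both, by 3.23 ± 0.76 and 5.49 ± 0.76, from 4, 12 and 6 on day 4. EPHA10 was higher in both at values of 12 to 50. The other genes higher in CD43- cells were SEMA3G, EPHA3, EFNA1, EFNB2, SLIT3, NTN3 and NTN5, with EFNA1 going from 428, 473 and 430 to 3895, 3224 and 2058. NTN5 overlapped day 4 cells, at 6, 8 and 26 against 7, 0 and 2, and was 1.46 without the sample at 26. SEMA3G was 1.84 without CD43- replicate 1 and NTN3 was 1.44 without day 4 replicate 2. Each of these calls was then lost. In CD43+ cells the steepest falls were those of SEMA3C (-6.67 on the log2 scale, to 20, 28 and 36), SEMA5A (-5.90), EPHA7 (-5.75), SEMA6D (-5.56) and EPHB2 (-5.40). SEMA3C was lower in CD43- cells as well (-3.01), at 188, 363 and 650, and so was EPHA5, at 1, 0 and 1 from 12, 10 and 6.

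In all, 12 of the 66 genes were called in none of the comparisons of fractions, as 62.5% of all genes tested were: SEMA4B, SEMA6B, SEMA7A, PLXNA3, PLXNB2, PLXNB3, PLXND1, EPHA8, EPHA10, SLIT1, ROBO3 and NTN1.

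Guidance genes outside the 4 ligand and receptor families were counted as a list of 41, all tested, of co-receptors, other ligands and intracellular partners. On days 6, 9, 12 and 16, 10, 21, 21 and 16 of them were lower in CD43+ cells and 0, 0, 3 and 3 higher (limma). Of all genes tested, 7.85%, 12.8%, 14.4% and 13.6% were lower and 4.68%, 8.65%, 11.8% and 12.2% higher. The 3 higher on day 12 and on day 16 were 7.32% of the 41, below the share of all genes. At an unadjusted p below 0.05, 5 were higher on day 6 and 2 on day 9, against 32.1% and 40.2% of all genes. The netrin receptor DCC was lower on all 4 days and its relative NEO1 on days 9, 12 and 16, with log2 differences of -4.83 ± 0.52 for DCC on day 9 and -3.20 ± 0.27 for NEO1 on day 12. NRP2, the neuropilin of SEMA3F, had a difference of 0.05 ± 0.24 on day 6 and of -3.07 ± 0.24 on day 9, where it was lower. NRP1, which binds SEMA3A and VEGF, was lower on days 6 and 9 (-2.83 and -4.16) and was not called on days 12 and 16 (-0.69 and -0.33). ABLIM3, an actin-binding protein, was lower on day 6 and higher on day 12 (-2.27 and 2.09), and MICAL1, an oxidoreductase that acts on actin below plexins, was lower on day 6 and higher on day 16 (-2.02 and 2.05). FES, a tyrosine kinase known from myeloid cells, was higher on days 12 and 16, by 2.47 and 2.31. NTNG2, a netrin-like surface protein, was higher by 4.09 ± 0.56 and 4.17 ± 0.56 on those days.

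The 66 genes were placed with the GENCODE v29 annotation of GRCh38, where all of them overlapped the deposited positions. Of these, 11 overlap another protein-coding gene, among them PLXNC1 (CEP83), EPHB4 (SLC12A9), EPHA1 (ZYX) and UNC5A (HK3), and 35 overlap a gene on the other strand, and it is not stated whether the counting used strand.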

How the data were processed

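RNA-seq of 34 samples was analysed. Reads were mapped and quantified by the authors on Ensembl gene models (Bowtie2, RSEM); the submitters' processing notes also name STAR 2.7, bcl2fastq and hg38. The authors then normalised tag counts for GC content and between samples with EDASeq. The deposited values are therefore normalised scores, not raw counts: they are whole numbers, and sorted they are identical in every sample, so depth is unknown and differences in total RNA cannot be seen. A test for raw counts had been foreseen and was not used.

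limma 3.58.1 in R 4.3.3 was fitted to log2(value + 1) of 33 samples in 11 groups of 3, with an intensity trend, over the 19788 genes that reached 10 in 3 or more samples. Undifferentiated H1 cells, with 1 sample, stayed outside the fit. Calls needed a Benjamini-Hochberg adjusted p below 0.05 over all genes tested and a fold change above 4, and fold changes on this scale understate those of low genes. Errors are SEs of the fit. An exact permutation test of 3 against 3 cannot go below p = 0.1. The fit was tested on simulated data.

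The 66 genes and all lists were chosen with earlier results of these data known. Per family, up to 4 called genes with the largest change in each direction, then genes moving the other way or called in the early steps or in changes of the difference, were chosen for description with values. The others are given in ranges, by name in lists, or, as for EPHB1, only within the counts of their family. Same-numbered day 6 samples deviated together (r = 0.198, 0.109 and 0.199 over genes), which was taken as pairing on that day, while on later days r lay between -0.0152 and 0.108 and did not pass 0.1 for every number. Alternatives were other constants, filters, scaling, a lower fold, a replicate block, fits of only the populations compared and leaving out each replicate. Promoters were read from RefSeq (GRCh38.p14).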

Additional observations from a re-analysis of the deposited data

Results flagged for a closer look

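The values in this section are changes over time of the log2 difference between CD43+ and CD43- cells, each from an interaction term in the limma fit across all genes. They are listed because the difference itself changed by more than 4-fold with an adjusted p below 0.05. From day 6 to day 12 the difference moved down for 24 genes: SEMA3E (-6.15), SEMA5B (-2.58), SEMA6A (-2.75), SEMA6D (-3.94), PLXNA4 (-2.70), EPHA2 (-4.95), EPHA4 (-3.14), EPHA5 (-3.17), EPHB4 (-3.71), EPHB6 (-2.75), EFNA1 (-2.78), EFNA2 (-3.80), EFNA3 (-2.29), EFNA5 (-2.77), EFNB1 (-2.25), EFNB2 (-3.04), EFNB3 (-5.42), SLIT3 (-2.27), ROBO2 (-2.91), ROBO4 (-3.31), NTN3 (-5.28), NTN4 (-2.25), UNC5C (-6.35) and UNC5D (-4.76). It moved up for 5 genes: SEMA4A (2.74), SEMA6B (2.95), EPHA1 (2.67), EPHB2 (2.21) and UNC5A (3.92). The highest adjusted p among these 29 was 0.0360.

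From day 12 to day 16 the difference moved up for SEMA3D (3.16), SEMA3E (2.83), EPHA2 (2.66), ROBO2 (2.01) and UNC5C (3.15) and down for SEMA6B (-2.68), EPHA3 (-2.67) and EPHA10 (-2.76), with an adjusted p of at most 0.0438. SEMA3E, EPHA2, ROBO2 and UNC5C moved down first and then up, and SEMA6B moved up first and then down. For 2 of these the move up was not firm. That of UNC5C was 1.83 and not called without day 12 CD43+ replicate 2. In a limma fit of the compared populations alone its adjusted p was 0.184. The move up of ROBO2 was 1.42 and not called without day 12 CD43+ replicate 1. The day 12 samples enter both changes with opposite sign, so the pairs are not independent. EPHA5, NTN4 and UNC5A lay at or below 60 in every sample compared from day 6 to day 12.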

How the results depend on the processing

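The calls of guidance genes between fractions were repeated under other settings. Over 157 calls of a gene on a day and 2064 values under alternatives, 2024 stayed called in the same direction, 40 lost the call and 0 turned direction. The number of genes called was 26 on day 6 (20 to 27 over the alternatives other than the lower fold limit), 38 on day 9 (36 to 40), 50 on day 12 (47 to 50) and 43 on day 16 (42 to 45). A constant of 10 in place of 1 lost 12 of the 157 calls, among them EPHA5, UNC5A and UNC5D on day 6 and NTN4 on days 9 and 12.

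Single libraries decided some calls. On day 6, EFNA2 was -1.88 and -1.82 without CD43+ replicates 1 and 2, EPHA1 was -1.80 without CD43+ replicate 1 and -1.89 without CD43- replicate 2, SEMA6A was -1.92 without CD43+ replicate 2 and -1.94 and -2.00 without CD43- replicates 1 and 2, and EPHA5 was 1.99 without CD43+ replicate 3 and 1.93 without CD43- replicate 2. On day 12, SEMA4C was -1.97 and -1.91 without CD43+ replicates 2 and 3, PLXNB1 was -1.93 without CD43+ replicate 1 and -1.83 without CD43- replicate 1, SEMA4G was -1.97 without CD43+ replicate 3 and -2.00 without CD43- replicate 2, and NTN5 was -1.91 without CD43+ replicate 3. On day 16, SEMA4F was -1.91 without CD43+/CD45+ replicate 3. ROBO4 on day 6 also lost its call when only the compared populations were fitted.

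With a fold limit of 2, the calls numbered 26 from day 0 to 2, 29 from day 2 to 4, 20 for day 6 CD43- against day 4 cells, 29, 29 and 15 in CD43+ cells and 5, 7 and 10 in CD43- cells for the steps from day 6 to 9, 9 to 12 and 12 to 16, and 13 for the change of the difference from day 12 to 16. Day 6 CD43- against day 4 cells gave 6 calls with a constant of 10, and CD43+ cells from day 12 to 16 gave 5 with a constant of 0.1. CD43- cells from day 6 to 9 gave 0 calls with a constant of 10 and in a fit of the compared populations. CD43- cells from day 9 to 12 gave 1 with either constant, with a filter at 100 and in a fit of the compared populations, and the change from day 12 to 16 gave 3 in such a fit.

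Leaving out 1 replicate gave 3 to 5 calls in CD43+ cells from day 12 to 16 (5 without day 12 CD43+ replicate 1). In CD43- cells it gave 0 to 2 from day 6 to 9 (2 and 0 without day 9 replicates 1 and 2) and 1 to 5 from day 9 to 12 (5 and 1 without day 12 replicates 1 and 2, 4 and 1 without day 9 replicates 2 and 3). The change from day 12 to 16 gave 3 to 11 calls (5 without day 16 CD43+/CD45+ replicate 1, 5 and 3 without CD43-CD45- replicates 1 and 2). Of the 11 genes that fell in CD43+ cells from day 6 to 9, 3 lost the call under at least 1 alternative, SEMA6D, ROBO4 and NTN4, and so did 8 of the 29 and 5 of the 8 genes in the changes of the difference. The 8 of the 29 were SEMA5B, EPHA5, EPHB2, EFNA2, EFNB1, SLIT3, ROBO4 and NTN4. The 5 of the 8 were SEMA3D, EPHA3, EPHA10, ROBO2 and UNC5C. ROBO4 was -1.34 and -2.09 without day 6 CD43+ replicates 1 and 2 and -1.90 and -1.96 without day 9 CD43+ replicates 1 and 2, SEMA6D was -1.99 and -1.93 without day 6 replicates 2 and 3 and -1.76 without day 9 replicate 1, and NTN4 was -1.66 and -1.90 without day 6 replicates 2 and 3. From day 9 to 12, UNC5D was -1.66 without day 9 CD43+ replicate 3, and from day 12 to 16, SEMA3D was 1.95 without day 16 CD43+/CD45+ replicate 3 and UNC5B -1.94 without day 12 CD43+ replicate 1. From day 2 to 4, and from day 4 to the day 6 CD43+ and CD43- fractions, 5 of 16, 9 of 27 and 6 of 11 genes lost the call under at least 1 alternative, and 0 of the 15 called from day 0 to 2 did. The cause of these shifts was not tested. A replicate block in all groups changed no count of calls, and with the block on day 6 alone the calls numbered 26 between the day 6 fractions, 27 and 11 for day 6 CD43+ and CD43- against day 4 cells, 11 and 1 for CD43+ and CD43- cells from day 6 to 9 and 29 for the change from day 6 to 12.

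Leaving out the 2 day 12 CD43- samples with PTPRC, an alternative chosen after the data were seen, gave 47 calls on day 12 (1 higher, 46 lower) and 31 for the change from day 6 to 12. Median-of-ratios scaling shifted the median of all genes by -0.17 on day 6, -0.21 on day 9, 0.11 for day 6 CD43- against day 4 cells and 0.17 for CD43+ cells from day 9 to 12, and no called difference between fractions turned direction under it.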
